A study of Mus musculus with 28 samples.

Results

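Livers of fasted mice and livers of mice on a high-fat diet were hybridised against each other on 2-colour spotted arrays, and the ratio between them is described here across all named genes. The 10 arrays were taken from their titles, which name 1 fasted and 1 high-fat liver each, out of 28 arrays in the series. They hold 10 C57BL/6 mice of 12 to 16 weeks of age in 5 pairs, with 2 arrays of exchanged dyes for each pair. The fasted mice ate chow for 2 weeks and then had no food for 16 h. The high-fat mice ate a high-fat diet for 2 weeks, with no fast named in the labels. Sex is not named there either. The diet and the state of feeding differ together between the groups, so the direct ratio alone cannot tell their parts apart. The remaining 18 arrays set fasted livers (4 pairs) and high-fat livers (5 pairs) against livers of control mice on chow.

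Each value is a log2 ratio of fasted over high-fat liver, averaged over the 2 arrays of a pair, so that 1 pair of mice is 1 replicate. A pair is named by its fasted and its high-fat mouse, and values per pair follow the order 13/8, 12/6, 11/9, 14/7 and 15/10. No source used here states the log base or the direction. The base was taken as 2 and the direction as the second-named over the first-named liver of a title, so both are assumptions. Only ratios were used, so the level of a gene, its signal over background and the presence of liver markers in each sample are unknown.

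An overnight fast turns the mouse liver from storing to releasing fuel. Fatty acids from adipose tissue activate the nuclear receptor PPARα (Ppara), which raises genes of fatty acid oxidation and ketone production, while falling insulin lowers the sterol and carbohydrate response factors SREBP and ChREBP (Mlxipl) that drive lipid synthesis. A high-fat diet also brings fatty acids to the liver, but with insulin and feeding maintained. Bile acid synthesis, amino acid breakdown and detoxifying enzymes respond to both conditions.

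Of 11457 features tested with limma, 156 passed a Benjamini-Hochberg adjusted p of 0.05 (1.36%). The features are 4799 named genes and 6658 spots with no symbol. Among the named genes 87 passed (1.81%), of which 58 were higher (1.21%) and 29 lower (0.604%) in fasted than in high-fat livers. With the opposite direction of the ratios, 29 would be higher and 58 lower, and every sign below would turn. The ratio of each of these 87 genes had the same sign in all 5 pairs, which their choice by p over those pairs largely fixes. Of these, 20 rises and 12 falls exceeded 2-fold, and the median size of the 87 was 0.83 on the log2 scale. The median over all named genes was -0.00.

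**Figure D1:**
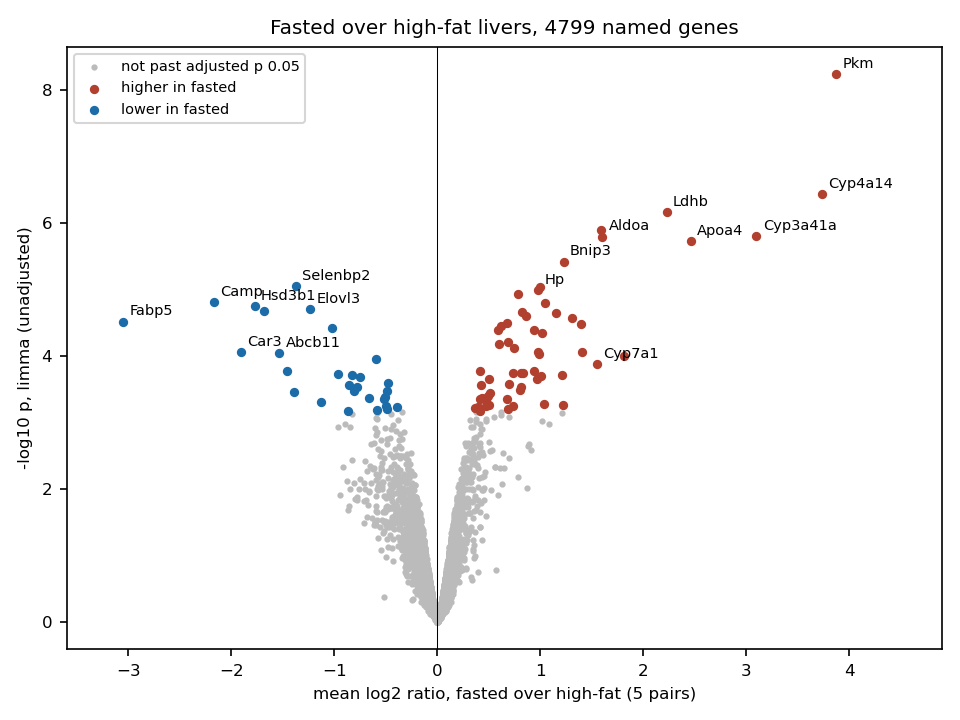
Mean log2 ratio of fasted over high-fat liver (horizontal axis, 5 pairs) against the −log10 of the unadjusted limma p (vertical axis) for 4799 named genes. Red points are the 58 genes higher and blue points the 29 genes lower in fasted livers at an adjusted p of 0.05, with Pkm and Cyp4a14 farthest to the right and Fabp5 farthest to the left.

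The gene with the largest rise, which would be the largest fall with the opposite direction, was Pkm. Pkm encodes the muscle-type pyruvate kinase, which makes pyruvate, and it lies on chromosome 9. Its log2 ratios of fasted over high-fat liver were 3.82, 3.87, 4.34, 3.50 and 3.84. All 5 pairs lay close together and all 10 arrays were positive, between 3.13 and 4.88. Pkm was thus 14.7-fold higher in fasted livers (log2 3.87 ± 0.30, SD, n = 5, limma adjusted p 6.67e-05). Ldhb, a lactate dehydrogenase subunit, had ratios of 2.56, 1.90, 1.80, 2.36 and 2.52 and was 4.68-fold higher (log2 2.23 ± 0.36, SD, n = 5, limma adjusted p 0.000986). Aldoa, the muscle-type aldolase that splits fructose bisphosphate, had ratios of 1.34, 1.49, 1.44, 1.73 and 2.02 and was 3.04-fold higher (log2 1.60 ± 0.27, SD, n = 5, limma adjusted p 0.00141).

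Most other genes of the pathway did not pass. Of 12 measured genes of glycolysis and fructose metabolism, 3 rose, 1 fell and 8 did not pass, with a median log2 ratio of 0.12. The share past the threshold was 33.3%, against 1.81% of all named genes. The gene lists were chosen with earlier results of these data known, so this share and those below describe the lists and test nothing. The gene that fell was Khk, ketohexokinase, the first enzyme of fructose use, with ratios between -0.80 and -0.39 (mean -0.60, limma adjusted p 0.0197). Pklr, the liver-type pyruvate kinase, had a mean of -0.04 ± 0.27 (SD, n = 5, limma adjusted p 0.886). Because Pkm, Ldhb and Aldoa are abundant in muscle and blood cells, markers of both are given beside them. None of 8 measured skeletal muscle markers passed, their median was 0.02, and the median in single pairs lay between -0.03 and 0.06. None of 5 measured erythroid markers passed either, with a median of -0.07 and wider medians in single pairs, from -0.48 to 0.21. Of white cell markers, 0 of 9 lymphocyte genes passed (median -0.06). Among 10 neutrophil genes (median -0.02) only Camp passed, and it fell. The part of other cells in the rise of the 3 enzymes was not tested.

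The promoter of Pkm is shown because it was the only promoter among 27 matched candidates (the genes with the largest changes and the cholesterol list) that held one of the 3 motifs searched. It spans chr9:59656977-59657276 of GRCm38.p6 on the + strand in RefSeq, from 250 bases before to 50 after the gene start, and capitals mark the sterol element.
Pkm: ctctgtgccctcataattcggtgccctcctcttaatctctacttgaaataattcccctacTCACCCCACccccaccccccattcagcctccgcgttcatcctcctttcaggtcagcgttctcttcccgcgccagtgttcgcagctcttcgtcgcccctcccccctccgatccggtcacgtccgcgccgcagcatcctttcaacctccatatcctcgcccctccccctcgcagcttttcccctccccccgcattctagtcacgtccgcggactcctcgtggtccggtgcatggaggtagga
The sterol element TCACNCCAC was searched on both strands and starts at base 61, which is 190 bases before the gene start. It was present in 2 of 82 windows of called genes (2.44%; Mlxipl and Pkm), against 408 of 32851 windows of all RefSeq promoters (1.24%). The cyclic AMP element TGACGTCA was in 0 of the 82 windows and in 1.79% of all windows. The direct repeat 1 element, in its strict form, was in 0 of the 82 and in 0.0396% of all. These matches describe letters in windows that 69 of the 87 called genes had, and not the use of a site.

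Of the genes of fatty acid oxidation outside mitochondria, 1 rose by over 10-fold and 2 by less than 2-fold. Cyp4a14, a cytochrome that hydroxylates the far end of fatty acids, had log2 ratios of 4.09, 3.62, 4.53, 3.09 and 3.35. Each pair was above 3 on that scale, and the gene was 13.3-fold higher in fasted livers (3.74 ± 0.58, SD, n = 5, limma adjusted p 0.000698). The list of peroxisomal and microsomal oxidation had 10 measured members, with a median log2 ratio of 0.30. Of these, 3 rose and 0 fell (30%, against 1.81% of all named genes). Besides Cyp4a14 these were Hsd17b4, the second enzyme of peroxisomal β-oxidation (0.62 ± 0.11, limma adjusted p 0.00917), and Ech1, an isomerase of unsaturated fatty acids (0.59 ± 0.13, limma adjusted p 0.0138). Slc27a2, a fatty acid activating transporter, had 0.26 ± 0.08 and did not pass (adjusted p 0.107). Hacl1, which shortens branched fatty acids in peroxisomes, is outside the list and was picked after its values were seen: it was 1.72-fold higher, between 0.61 and 0.97 in the 5 pairs (limma adjusted p 0.00525).

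Inside mitochondria the 2 genes that rose did so by less than 2-fold. All 7 measured genes of mitochondrial fatty acid oxidation had a mean above 0, with a median of 0.29. Of the 7, 2 passed (28.6%, against 1.81% of all named genes). The median was 0.44 on the first and 0.14 on the second arrays, and 6 of the 7 were above 0 on the second arrays alone, without pair 13/8, 12/6 or 15/10 and with all 14 pairs in one fit. Slc25a20, which carries acylcarnitines into mitochondria, had log2 ratios of 0.68, 0.32, 0.58, 0.49 and 0.45 (mean 0.50, limma adjusted p 0.0302). Cpt2, which turns acylcarnitines back into acyl-CoA there, had 0.65, 0.33, 0.59, 0.31 and 0.60 (mean 0.49, limma adjusted p 0.0399). Pairs 12/6 and 14/7 were the lower ones for Cpt2. The acyl-CoA dehydrogenases Acadm (0.36 ± 0.14) and Acadl (0.27 ± 0.09) were above 0 in all 5 pairs without passing (adjusted p 0.081 and 0.109). Of the 4 listed genes of ketone body synthesis, 0 were measured.

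Other PPARα-regulated genes moved in both directions. Of 14 measured, 3 rose and 2 fell (35.7%, against 1.81% of all named genes), 9 did not pass and the median was 0.21. Acot1, which frees fatty acids from CoA, had log2 ratios of 2.65, 1.00, 2.24, 1.40 and 1.78 and was 3.51-fold higher (limma adjusted p 0.018), although its near-identical paralogs may share signal at its spots. Vnn1, the pantetheinase vanin, was 1.97-fold higher, between 0.74 and 1.49 in the pairs (limma adjusted p 0.0169). Apoa4, an apolipoprotein of triglyceride-rich particles, had 2.79, 2.06, 2.69, 1.85 and 2.92 and was 5.51-fold higher (limma adjusted p 0.00145). The regulators and hormones that a fast is known for stood closer to 0: Pdk4, which blocks pyruvate dehydrogenase, had 0.13 ± 0.34 (SD, n = 5, limma adjusted p 0.651). The hepatic hormone Fgf21 had -0.11 ± 0.27 (limma adjusted p 0.647), and the lipase inhibitor Angptl4 had 0.33 ± 0.27 (limma adjusted p 0.2). The fatty acid transporter Cd36 was above 0 in all 5 pairs, with a mean of 0.36 (limma adjusted p 0.111).

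Of 6 measured fatty acid-binding proteins, small carriers of fatty acids in the cytosol, 3 fell. Fabp5, the epidermal form, had log2 ratios of -3.19, -3.02, -4.11, -1.56 and -3.36. Pair 14/7 was the smallest and pair 11/9 the largest change, and Fabp5 was 8.28-fold lower in fasted livers (-3.05 ± 0.93, SD, n = 5, limma adjusted p 0.00862). Fabp1, the liver form, had -1.96, -1.15, -0.998, -1.004 and -2.18 and was 2.74-fold lower (limma adjusted p 0.0265). Its second arrays averaged -1.98 and its first arrays -0.93, so the 2 dye orientations differed in size, though not in sign. Fabp2, the intestinal form, was 1.42-fold lower, between -0.72 and -0.31 in the pairs (limma adjusted p 0.0406). The muscle form Fabp3 (-0.61), the ileal form Fabp6 (-0.11) and Fabp9 (0.07), looked up after the others were seen, did not pass (adjusted p 0.253, 0.707 and 0.695).

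**Figure D2:**
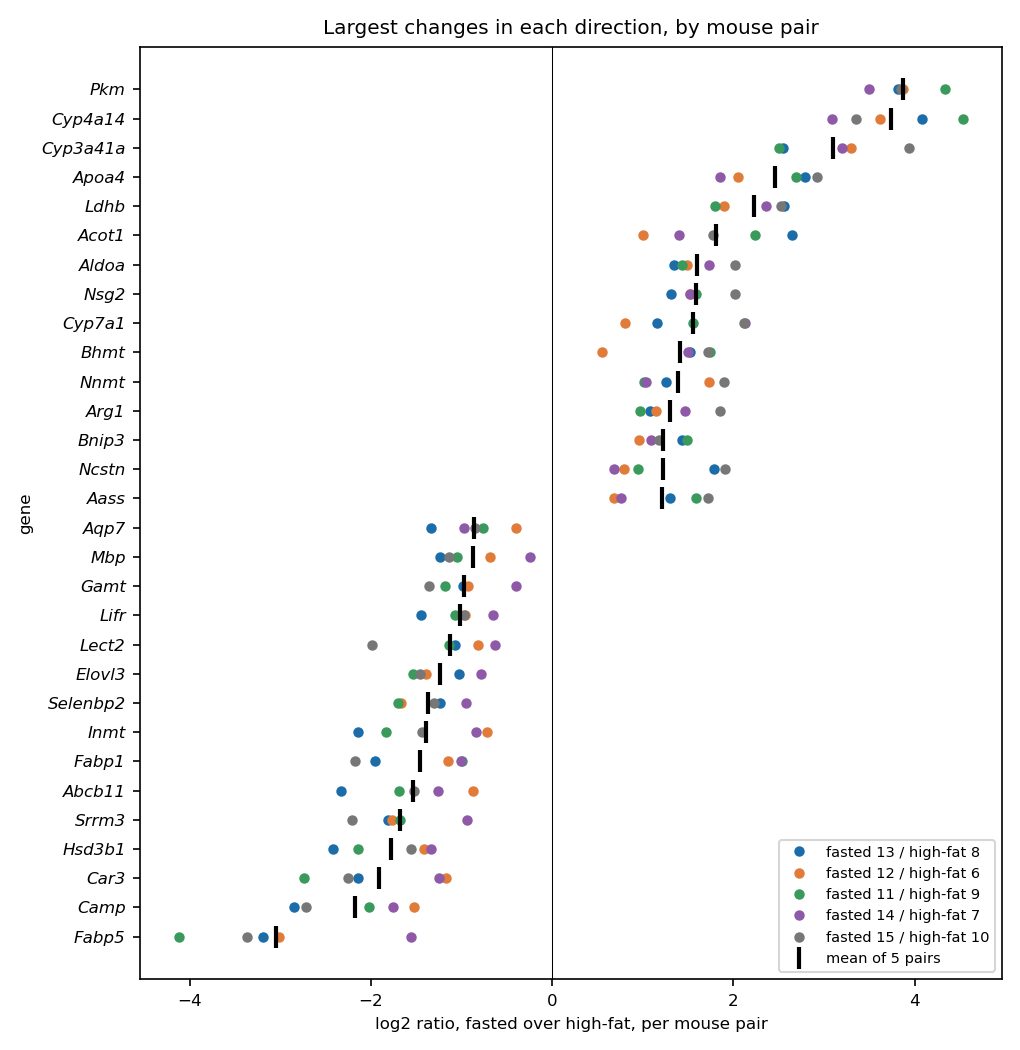
Log2 ratio of fasted over high-fat liver in each of the 5 mouse pairs (coloured points) with their mean (black mark) for the 15 genes with the largest rise and the 15 with the largest fall among those past the threshold. All points of a gene lie on one side of 0, as the choice of genes required. Pairs 12/6 (orange) and 14/7 (purple) are often nearest to 0.

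Genes of lipid synthesis were lower in fasted livers where they passed. The list of fatty acid and triglyceride synthesis had 15 measured members, with a median of -0.14. Of the 15, 0 rose, 3 fell (20%, against 1.81% of all named genes) and 12 did not pass. Elovl3, which lengthens very long fatty acids, had log2 ratios of -1.03, -1.39, -1.53, -0.78 and -1.45 and was 2.36-fold lower (limma adjusted p 0.00765). Mlxipl, the carbohydrate response factor, had -1.18, -0.48, -0.82, -0.63 and -0.65 and was 1.69-fold lower (limma adjusted p 0.0292). Acss2, which makes cytosolic acetyl-CoA from acetate, had -0.59, -0.90, -0.82, -0.23 and -0.80 and was 1.59-fold lower (limma adjusted p 0.0409). Malic enzyme Me1, a source of NADPH, was nearly equal in all pairs, between -0.29 and -0.23, without passing (adjusted p 0.096). The desaturase Scd1 had -0.54 ± 0.42 (SD, n = 5, limma adjusted p 0.163), with -1.18 in pair 11/9 and -0.19 in pair 12/6.

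All 7 measured genes of cholesterol synthesis had a mean below 0, between -0.83 and -0.20, with a median of -0.33. Only Ebp, a sterol isomerase, passed, at 1.41-fold lower (mean -0.49, limma adjusted p 0.0374). That is 14.3% of the list, against 1.81% of all named genes. Nsdhl, a sterol dehydrogenase, had -1.40, -0.41, -1.41, -0.26 and -0.66. Its pairs 13/8 and 11/9 stood apart from the rest, and its mean of -0.83 did not pass (adjusted p 0.107). The squalene synthase Fdft1 (-0.35 ± 0.24) and the reductase Dhcr7 (-0.23 ± 0.12) were below 0 in all 5 pairs without passing (adjusted p 0.161 and 0.181).

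**Figure D3:**
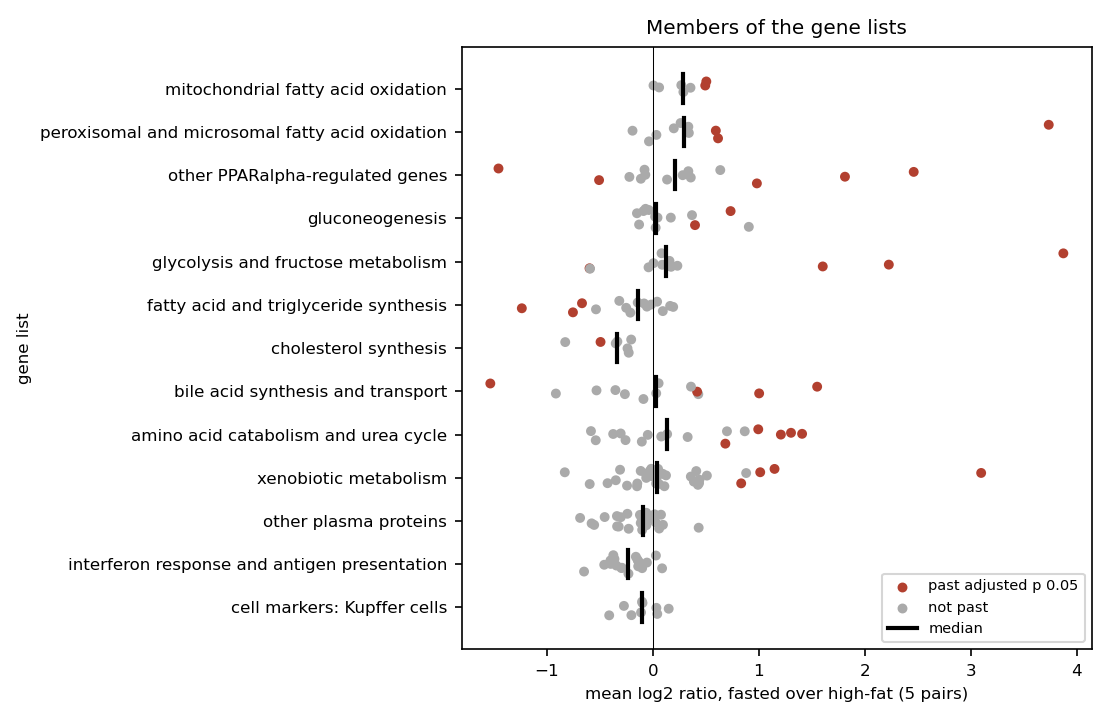
Mean log2 ratio of fasted over high-fat liver (horizontal axis) for the measured genes of 13 lists (vertical axis), with genes past an adjusted p of 0.05 in red, others in grey and the list's median as a black bar. The 7 cholesterol genes all lie left of 0 and the 7 mitochondrial oxidation genes all lie right of it, while most lists are centred near 0.

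The gluconeogenesis list had 13 measured members, of which 2 were higher and 0 lower past the threshold (15.4%, against 1.81% of all named genes), and the median was 0.03. Slc37a4, which brings glucose 6-phosphate into the endoplasmic reticulum, had log2 ratios of 1.01, 0.47, 0.81, 0.46 and 0.91 and was 1.66-fold higher (limma adjusted p 0.0277). Pcx, pyruvate carboxylase, was 1.32-fold higher, between 0.25 and 0.54 (limma adjusted p 0.0467). Pck1, which makes phosphoenolpyruvate, had 0.04, 0.88, -0.18, 1.05 and 0.06. Only pairs 12/6 and 14/7 showed it clearly higher in the fasted liver, and its mean of 0.37 did not pass (adjusted p 0.415). G6pc, which releases free glucose, ranged from -0.60 to 0.39, with a mean of -0.09 (limma adjusted p 0.826). Got1, an aminotransferase of the malate shuttle, had 0.91 ± 0.56 (adjusted p 0.0914), and the coactivator Ppargc1a had 0.17 ± 0.16 (adjusted p 0.356). The insulin and IGF list had no gene past the threshold among 23 measured, with Igfbp1 at 0.01 ± 0.10 and Igf1 at -0.13 ± 0.24 (SD, n = 5).

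Of the bile acid genes, 3 enzymes of synthesis rose and 1 transporter, the export pump, fell. Cyp7a1, which sets the rate of making bile acids from cholesterol, had log2 ratios of 1.15, 0.80, 1.56, 2.12 and 2.11. Pair 12/6 was the lowest, and Cyp7a1 was 2.93-fold higher in fasted livers (1.55 ± 0.58, SD, n = 5, limma adjusted p 0.0222). Cyp8b1, which makes cholic acid, had 1.40, 0.41, 1.29, 0.95 and 0.96 and was 2-fold higher (limma adjusted p 0.029). Baat, which joins bile acids to taurine and glycine, was 1.34-fold higher, between 0.36 and 0.46 in the pair means (limma adjusted p 0.0265). Its 10 single arrays ran more widely, from -0.06 to 0.83 with 2 below 0. Baat lost the threshold in all 5 omissions of a pair, as did other genes that are named further below. Abcb11, the canalicular bile salt pump, had -2.33, -0.87, -1.69, -1.26 and -1.52 and was 2.9-fold lower (limma adjusted p 0.0172). These 4 are those that passed among 13 measured genes of bile acid synthesis and transport, whose median was 0.03. They make up 30.8% of the list, against 1.81% of all named genes.

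Amino acid breakdown and the urea cycle had 5 genes higher and 0 lower among 17 measured (29.4%, against 1.81% of all named genes). The list median was 0.13. Arg1, arginase, which releases urea, had log2 ratios of 1.08, 1.14, 0.97, 1.47 and 1.86 and was 2.47-fold higher (limma adjusted p 0.00824). Ahcy, which splits S-adenosylhomocysteine, had 0.80, 1.03, 0.78, 1.13 and 1.24 and was 1.99-fold higher (limma adjusted p 0.00446). Bhmt, which returns a methyl group from betaine to homocysteine, had 1.52, 0.56, 1.74, 1.50 and 1.72. Pair 12/6 stood well below the other 4 for Bhmt, which was 2.65-fold higher on average (limma adjusted p 0.0169). Aass, the first enzyme of lysine breakdown, was 2.31-fold higher, between 0.68 and 1.72 (limma adjusted p 0.0285). Oat, ornithine aminotransferase, was the last of the 5, at 1.61-fold higher (limma adjusted p 0.0495), and is named after its values were seen.

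Xenobiotic metabolism had 4 genes higher and 0 lower among 34 measured (11.8%, against 1.81% of all named genes). The list median was 0.04. Cyp3a41a, a cytochrome of the Cyp3a group, had log2 ratios of 2.55, 3.30, 2.50, 3.20 and 3.94 and was 8.56-fold higher in fasted than in high-fat livers (3.10 ± 0.59, SD, n = 5, limma adjusted p 0.00141). Its paralogs are close in sequence, so the spots may report several of them. Gstt2 (2.22-fold, limma adjusted p 0.00776) and Gsta2 (2.02-fold, limma adjusted p 0.01), both glutathione transferases, were higher in all 5 pairs. Ephx1, the microsomal epoxide hydrolase, had 1.13, 0.33, 0.95, 0.89 and 0.88 and was 1.78-fold higher (limma adjusted p 0.0277). On the list of genes that respond to growth hormone or differ by sex, 12 were measured, with a median of -0.16. Of the 12, 1 fell and 0 rose (8.33%, against 1.81% of all named genes). That gene was Hsd3b1, a steroid dehydrogenase with close paralogs, whose ratios were -2.42, -1.42, -2.14, -1.33 and -1.56 (3.42-fold lower, limma adjusted p 0.007). Cyp3a41a is not on this list and is not counted in it. The sex of the mice is not in the labels, and its part in this list or in the ratio of Cyp3a41a was not tested. The steroid hydroxylase Cyp17a1 had 1.08 ± 0.57 (adjusted p 0.0594), the growth hormone receptor Ghr -0.62 ± 0.34 (adjusted p 0.0818) and complement C6 -0.55 ± 0.36 (adjusted p 0.124).

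Secreted proteins of the liver were mostly not separated. Hp, haptoglobin, which binds free haemoglobin, was the only 1 of 12 measured acute phase genes to pass (8.33%, against 1.81% of all named genes). Its log2 ratios were 0.68, 1.10, 1.04, 0.89 and 1.19, a rise of 1.97-fold (limma adjusted p 0.00472). The acute phase proteins Lbp (0.53 ± 0.30), Saa2 (0.20 ± 0.15) and Crp (-0.29 ± 0.23) did not pass (adjusted p 0.0911, 0.262 and 0.216). None of 28 other plasma proteins passed, and 22 of the 28 had a mean below 0, with a median of -0.09. Among them were the thrombin inhibitor Serpind1 at -0.69 ± 0.48, the thyroxine carrier Ttr at -0.45 ± 0.41, the corticosteroid carrier Serpina6 at -0.58 ± 0.46 and angiotensinogen, Agt, at 0.43 ± 0.33 (SD, n = 5 each).

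Among genes of protein turnover, 2 of 27 proteasome genes rose and 0 fell (7.41%, against 1.81% of all named genes), with a median of 0.10. These were the ATPase subunits Psmc1 (1.35-fold, limma adjusted p 0.0409) and Psmc3 (1.39-fold, limma adjusted p 0.0416), and the ubiquitin receptor Psmd4 (0.61 ± 0.27, adjusted p 0.0501) and the core subunit Psma5 (0.34 ± 0.13, adjusted p 0.0816) were also above 0 in every pair. Of 21 genes of lysosome and autophagy 2 rose (9.52%): Bnip3, a mitophagy receptor, had log2 ratios of 1.43, 0.96, 1.49, 1.09 and 1.18 (2.34-fold, limma adjusted p 0.00219). Ctsl, the protease cathepsin L, had 0.67, 0.73, 0.55, 0.74 and 1.37 (1.76-fold, limma adjusted p 0.0353), with pair 15/10 far above the rest. The autophagy protein Gabarapl1 had -0.45 ± 0.34 (adjusted p 0.164). Hsph1, a co-chaperone of the heat shock response, was the only 1 of 53 chaperones to pass (1.89%, near the share of all named genes), at 1.42-fold higher (limma adjusted p 0.0377). Thioredoxin, Txn1, was the only 1 of 16 antioxidant genes to pass (6.25%), at 1.31-fold lower (limma adjusted p 0.0474).

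Several lists held no gene past the threshold in either direction with limma at an adjusted p of 0.05. They were 37 ribosomal proteins (median 0.09), 18 translation factors (0.07), 23 genes of oxidative phosphorylation (0.02), 23 of the cell cycle (-0.00), 22 circadian or glucocorticoid-responsive genes (-0.08), 8 of the unfolded protein and amino acid stress response (0.01) and 3 of glycogen metabolism (-0.05). The interferon and antigen presentation list also had none among 19, but 17 of the 19 had a mean below 0 and the median was -0.23. That median was -0.13 without pair 11/9 and -0.08 with array weights, where 15 of 19 were below 0, and medians in single pairs ran from -0.43 to 0.05. In it the interferon-induced Ifit1 had -0.65 ± 0.37 (adjusted p 0.0828), Ifit3 had -0.40 ± 0.26 (adjusted p 0.138) and the antigen-presenting subunit B2m had -0.37 ± 0.26 (adjusted p 0.151). Of 22 genes of lipid storage and lipoprotein handling only Fabp5, described above, passed (4.55%, against 1.81% of all named genes). The lipoprotein receptor Lrp1 of that list had -0.59 ± 0.27 (adjusted p 0.0547). Igfbp5, a binding protein of insulin-like growth factors, had 0.35 ± 0.11 (adjusted p 0.0628).

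Markers of other cells passed about as seldom as named genes at large. Over 10 lists with 70 measured marker genes, 0 rose and 2 fell, where 1.81% of all named genes passed. The list medians lay between -0.17 and 0.02. In bulk liver, fewer cells of a type and less RNA per cell cannot be told apart. Camp, the antimicrobial cathelicidin of neutrophil granules, had log2 ratios of -2.85, -1.52, -2.02, -1.76 and -2.72. All pairs were clearly below 0, and Camp was 4.51-fold lower in fasted livers (-2.17 ± 0.59, SD, n = 5, limma adjusted p 0.00647). The other 9 measured neutrophil markers did not pass, among them S100a9 (-0.24 ± 0.26) and the granule enzymes Prtn3 (-0.40 ± 0.25) and Mpo (0.12 ± 0.03), and the list median was -0.02. Car3, the carbonic anhydrase shared by adipocytes, muscle and liver, had -2.14, -1.17, -2.74, -1.24 and -2.25 and was 3.75-fold lower (limma adjusted p 0.0169). The other 3 measured adipocyte markers did not pass, with Lep at 0.01 ± 0.11, Lipe at -0.03 ± 0.06 and Cidea at -0.32 ± 0.50. Kupffer cell markers had a median of -0.10, with medians in single pairs from -0.40 to 0.04, and Cd5l (-0.41 ± 0.39) and C1qc (-0.27 ± 0.32) did not pass.

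The other genes with large changes belong to no list used here. Nsg2, a neuronal vesicle protein, had log2 ratios of 1.31, 1.52, 1.59, 1.52 and 2.02 and was 3.01-fold higher (limma adjusted p 0.00139). Nnmt, which methylates nicotinamide, had 1.26, 1.73, 1.02, 1.04 and 1.90 and was 2.62-fold higher (limma adjusted p 0.00887). Ncstn, a subunit of γ-secretase, was 2.33-fold higher, with 1.78 and 1.90 in pairs 13/8 and 15/10 and 0.68 to 0.95 in the rest (limma adjusted p 0.0458). Among the falls, Srrm3, a splicing factor studied in neurons, had -1.81, -1.77, -1.68, -0.93 and -2.21 (3.21-fold lower, limma adjusted p 0.00776). Selenbp2, a selenium-binding protein, had -1.24, -1.67, -1.70, -0.95 and -1.31 (2.59-fold lower, limma adjusted p 0.00444). Lect2, a chemotactic protein secreted by the liver, was 2.19-fold lower, with -1.99 in pair 15/10 as the largest change (limma adjusted p 0.0442). Lifr, the receptor of leukaemia inhibitory factor, was 2.03-fold lower (limma adjusted p 0.00933), and the glycerol channel Aqp7 was 1.82-fold lower (limma adjusted p 0.0343). Mbp, myelin basic protein, was 1.83-fold lower, with means of -0.37 on the first and -1.37 on the second arrays (limma adjusted p 0.0498).

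The same genes were then set beside the ratios of each group to control livers. These share mice with the direct ratio, so they are given as values and not as separate evidence. Among named genes, 57 passed for fasted over control (1.19%) and 6 for high-fat over control (0.125%). Pkm had 3.87 in fasted over high-fat, 3.68 ± 1.15 in fasted over control (n = 4) and -0.96 ± 0.99 in high-fat over control (n = 5), of which the last did not pass (limma adjusted p 0.554). For Cyp3a41a the difference lay on the other side, with -0.16 ± 0.53 in fasted over control and -3.12 ± 0.66 in high-fat over control (limma adjusted p 0.904 and 5.01e-05). Hs6st3, a heparan sulfate sulfotransferase named after its values were seen, was 1.6-fold higher in fasted than in high-fat livers (limma adjusted p 0.0409). It had 0.05 ± 0.25 in fasted over control and -1.53 ± 0.60 in high-fat over control (limma adjusted p 0.974 and 0.00651).

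Some genes had ratios to control on both sides or on the same side. Fabp5 had -2.29 ± 0.51 in fasted over control (limma adjusted p 0.00828) and 1.54 ± 0.94 in high-fat over control, where it did not pass (limma adjusted p 0.0746). Apoa4 was higher than in control in both groups, by 4.99 ± 0.30 in fasted and 1.60 ± 0.30 in high-fat livers (limma adjusted p 0.000126 and 9.93e-05). Fabp2 had 0.72 ± 0.29 in fasted over control, not past the threshold, and 1.44 ± 0.42 in high-fat over control (limma adjusted p 0.114 and 0.0013), and the direct ratio of -0.51 puts it lower in the fasted livers. Hp had 0.19 ± 0.54 in fasted over control and -0.81 ± 0.51 in high-fat over control, and Ephx1 had -0.03 ± 0.14 and -0.97 ± 0.80, none of them past the threshold.

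**Figure D4:**
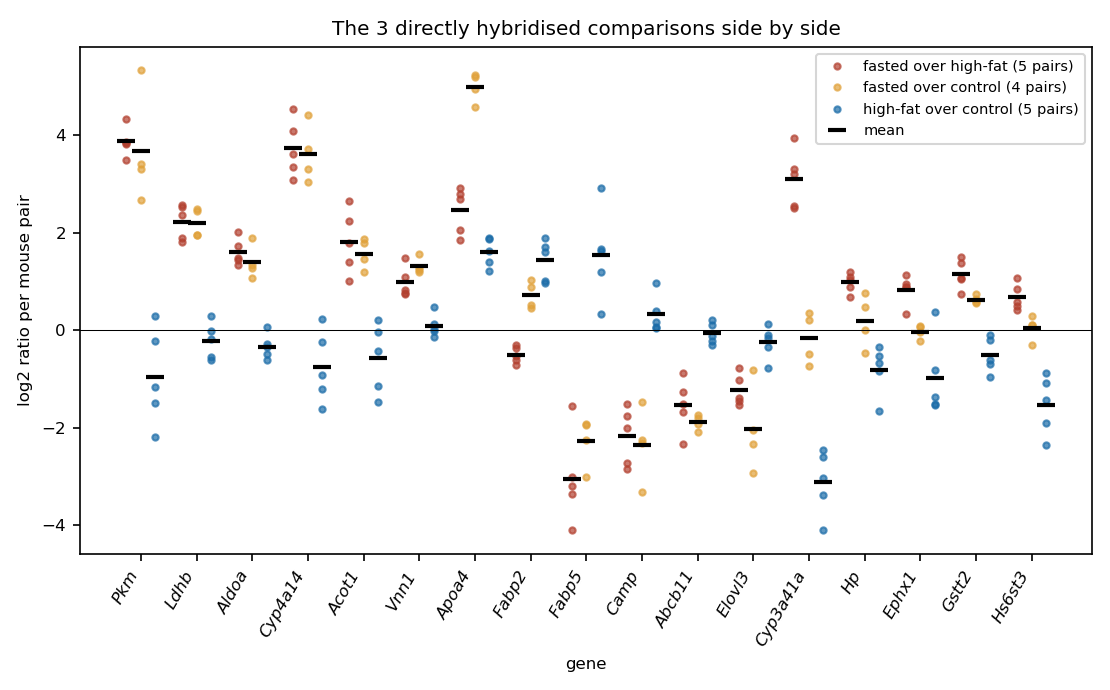
Log2 ratios per mouse pair (points) and their means (black bars) for 17 genes in fasted over high-fat (red, 5 pairs), fasted over control (orange, 4 pairs) and high-fat over control (blue, 5 pairs). Cyp3a41a lies between -0.73 and 0.36 in fasted over control and between -4.09 and -2.46 in high-fat over control, while Ldhb averages 2.21 and -0.22 there.

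A ratio measured directly can be compared with the difference of the 2 ratios to control. Over all 14 pairs, 0 of 11457 features departed from that difference at a limma adjusted p of 0.05, and 387 did at an unadjusted p of 0.05 (3.38%). The smallest adjusted p was 0.9996. This fit took the 14 pairs as independent, although mice recur among them. The median standard error of the departure was 0.22 on the log2 scale, and departures of over 1 on that scale also did not pass. Nsdhl had a direct mean of -0.83 and an indirect one of -2.20 (unadjusted limma p 0.00101), and Hsd3b1 had -1.77 and -2.93 (unadjusted limma p 0.0186). For Apoa4 the direct mean was 2.46 and the indirect one 3.39 (unadjusted limma p 0.00449), and for Pkm they were 3.87 and 4.64 (unadjusted limma p 0.222).

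The 5 pairs did not contribute equally. Over the 87 genes, the median size of the log2 ratio was 1.03 in pair 13/8, 0.69 in 12/6, 0.94 in 11/9, 0.68 in 14/7 and 0.96 in 15/10. The change was smallest in pair 14/7 for 33 genes and in pair 12/6 for 29 genes. Over all features, the SDs of the first arrays were 0.51, 0.44, 0.69, 0.29 and 0.43 in the same order of pairs. Those of the second arrays were 0.60, 0.39, 0.76, 0.44 and 0.40. The part of array spread in the sizes was not tested. In place of 87 genes, the number past the threshold was 22 without pair 13/8, 50 without 12/6, 31 without 11/9, 55 without 14/7 and 34 without 15/10. In each of these omissions 19 genes passed, among them Pkm, Cyp4a14, Cyp3a41a, Apoa4, Ldhb, Aldoa, Nsg2, Arg1, Bnip3, Ahcy and Hp among the rises and Camp, Hsd3b1, Selenbp2 and Elovl3 among the falls. The other 68 genes, Fabp5 among them (adjusted p 0.0596 without pair 13/8), lost the threshold in at least 1 omission. Those that lost it in all 5 included Slc25a20, Cpt2, Ebp, Psmc1, Psmc3, Pcx, Fabp2, Baat, Hsph1, Txn1, Ncstn, Hs6st3 and Hsd17b2.

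Both dye orientations gave the same sign of the mean for all 87 genes, and for 66 of the 87 all 10 arrays did. These genes were chosen on the mean of the turned arrays, which largely fixes the agreement in sign, so that count does not bear on the turning. The choice does not fix the sizes on single arrays. Among the largest rises, the 10 turned arrays ran from 3.13 to 4.88 for Pkm, 2.72 to 5.07 for Cyp4a14 and 1.70 to 4.10 for Cyp3a41a. Before turning, these genes thus had opposite signs on the 2 arrays of every pair. Across all single spots the 2 arrays of a pair resembled a mirror image in only 2 pairs before they were turned: the correlation was 0.125, -0.288, 0.128, 0.137 and -0.525. The mean dye effect of all other pairs of the series, those with control livers included, was then taken off. Across features the correlation was then 0.046, -0.097, 0.010, 0.430 and -0.334, so 3 of the 5 pairs were above 0 both before and after. The channel labels read literally place the fasted liver in Cy5 on all 10 arrays, which goes against the exchange of dyes in the design. Under that reading the second arrays would not be turned and 1 gene in place of 87 would pass.

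**Figure D5:**
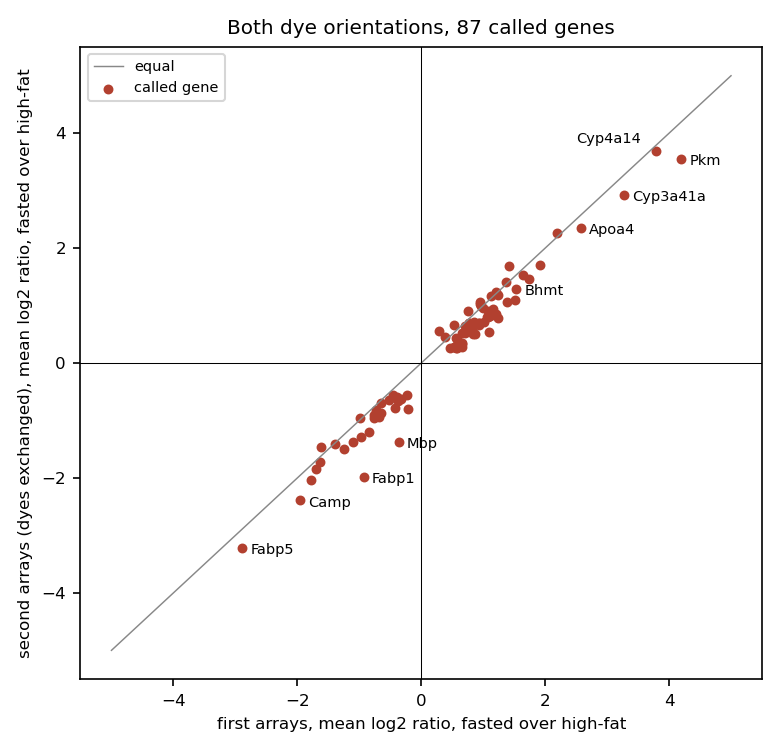
Mean log2 ratio of fasted over high-fat liver on the 5 first arrays (horizontal axis) against the 5 second arrays with exchanged dyes (vertical axis) for the 87 genes past the threshold, with a grey line of equality. All points lie at the lower left or upper right of the crossed zero lines, as the choice of genes largely fixes, and Fabp1 and Mbp lie farthest below the line among the labelled falls.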

How the data were processed

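Liver RNA was amplified and coupled to Cy3 and Cy5, per the labels' protocols, and 28 arrays of 15 mice were deposited. The authors deposited 1 processed ratio per spot and array, taken here as a log2 value (16416 spots, no empty cell). No source used here states the base or direction of the ratio, how background was corrected, how arrays were normalized or which spots were filtered. Program limma is named, with no version, in the submitters' processing notes. Array medians ran from -0.05 to 0.35 and SDs from 0.293 to 0.822 on the 10 arrays of fasted and high-fat livers, so the deposited log2 values were neither centred nor brought to one spread. Intensities were not used, so precision rests on the number of mice.

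Of the spots, 9758 had 1 gene symbol in the platform annotation, 0 several and 6658 none. Spots of a gene were averaged, giving 4799 genes, all matched to RefSeq by Entrez ID, with 2 spots each except Gapdh (160) and Mecom (4). Both arrays of a pair were turned to fasted over high-fat and averaged. A mean over the 5 pairs was tested with lmFit and eBayes (limma 3.58.1, R 4.3.3; 4 residual and 2.97 prior degrees of freedom), two-sided, with Benjamini-Hochberg adjustment over 11457 features and a threshold of 0.05. Each mouse number was taken as a separate animal. The fit was tested on simulated data.

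Genes named are the 15 largest rises and falls past the threshold, up to 4 genes by p from each list, a fixed panel of fasting and diet genes, and genes marked as picked after their values were seen. The comparison, the 38 lists and this rule were chosen with earlier results of these data known. Alternatives covered centring, scaling, single dye orientations, single arrays with a dye term, weights, robust eBayes, all 14 pairs, single spots, dyes read literally, named genes only, a filter on spread and each pair left out.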

Additional observations from a re-analysis of the deposited data

Results flagged for a closer look

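For each gene named, the 5 pairs of fasted and high-fat livers were searched for a pair far from the other 4, by Dixon's ratio of the gap to the range with a critical value of 0.71. Chance alone flags about 1 in 20 groups, and 4 of 109 genes were past the value. Bhmt, the betaine methyltransferase, had a log2 ratio of fasted over high-fat of 0.56 in pair 12/6, against 1.50 to 1.74 in the other pairs. Pklr, the liver-type pyruvate kinase, had -0.52 in pair 11/9, against 0.02 to 0.15. Ttr, the thyroxine carrier, had -1.17 in pair 13/8, against -0.41 to -0.17. Ctsl, the protease cathepsin L, had 1.37 in pair 15/10, against 0.55 to 0.74. The low or high pair is a different one for each of the 4 genes.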

How the results depend on the processing

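As reported, 58 genes were higher and 29 lower (87 in all) in fasted than in high-fat livers. The counts (higher, lower, both) were 16, 15 and 31 from the first arrays alone, 25, 11 and 36 from the second arrays alone, 137, 153 and 290 from single arrays with a dye term and the pair as a random block, 105, 55 and 160 with array weights, 174, 165 and 339 with all 14 pairs in one fit, and 118, 73 and 191 over named genes only. In the random block fit the consensus correlation between arrays of a pair was -0.35. Scaling the arrays to one spread gave 45 lower genes, and centring with scaling gave 47, against 68 and 73 higher. Centring alone, robust eBayes, single spots and the filter on spread moved no count by over 1.5 times. Leaving out each pair gave 16 to 36 higher, 6 to 19 lower and 22 to 55 in all. The departure of the direct from the indirect ratio had 0 features past the threshold also with arrays centred and, chosen after seeing the data, with pairs that share a mouse correlated. The mean of the arrays without turning, which is the dye part if the turning is right, passed for 10 features, and for 8 with arrays centred. It is the same fit as the dyes read literally, counted over all features and not over named genes alone.

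With the dyes read literally, 0 genes were higher and 1 lower (1 in all), and 39 of the 87 genes changed sign, 30 of them described by name here, of which none passed. The log2 means then were, of genes higher in fasted livers by the main reading, -0.038 for Ldhb, -0.14 for Cyp7a1, -0.025 for Nnmt, -0.016 for Bnip3, -0.056 for Cyp8b1, -0.038 for Baat, -0.023 for Gstt2, -0.072 for Ephx1 and -0.017 for Hp. Of genes lower, they were 0.16 for Fabp5, 0.22 for Camp, 0.12 for Car3, 0.070 for Hsd3b1, 0.041 for Srrm3, 0.53 for Fabp1, 0.0076 for Inmt, 0.13 for Selenbp2, 0.13 for Elovl3, 0.15 for Lect2, 0.18 for Lifr, 0.50 for Mbp, 0.10 for Aqp7, 0.30 for Fabp2, 0.18 for Khk, 0.11 for Mlxipl, 0.027 for Acss2, 0.13 for Ebp, 0.16 for Txn1, 0.072 for Adh1 and 0.064 for Hsd17b2. Under that reading 5 of 7 cholesterol synthesis genes and 14 of 19 interferon genes had a mean above 0. The cause of these changes was not tested, other than that unturned arrays of opposite sign cancel in a mean. No paired analysis was possible because the pairing is already in every value, a ratio within 1 pair of mice, which leaves no further block to add; the reported test is itself a paired one. Spot intensities were not used, so what dim signal limits is unknown.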

Other observations

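Of the genes past the threshold that the lists leave out, 6 more are given here. Inmt and Gamt are among the 15 largest falls, and the other 4 were chosen after their values were seen. As3mt, an arsenic methyltransferase, had log2 ratios of fasted over high-fat liver of 0.81, 0.89, 0.94, 0.68 and 1.36 and was 1.91-fold higher (limma adjusted p 0.00947). Inmt, which methylates indolamines, had -2.14, -0.72, -1.83, -0.84 and -1.43 and was 2.63-fold lower (limma adjusted p 0.0377). Gamt, the last enzyme of creatine synthesis, had -0.98, -0.93, -1.18, -0.39 and -1.36 and was 1.96-fold lower (limma adjusted p 0.0278). Pairs 12/6 and 14/7 were the smallest for Inmt, and pair 14/7 for Gamt.

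Cyp26a1, which breaks down retinoic acid, had 0.49, 0.71, 0.86, 0.52 and 0.85 and was 1.61-fold higher in fasted livers (limma adjusted p 0.0131). Adh1, an alcohol dehydrogenase that also oxidises retinol, had -1.12, -0.43, -0.83, -0.64 and -1.11 and was 1.77-fold lower (limma adjusted p 0.028). Hsd17b2, which inactivates oestradiol and testosterone, was 1.5-fold lower, between -0.89 and -0.28 (limma adjusted p 0.0498). Among the spots with no symbol, 44 were higher and 25 lower in fasted livers at the same threshold.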
